A study of Homo sapiens with 12 samples.

Results

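HEC-1A is a human epithelial cell line from an endometrial adenocarcinoma, and its transcriptome was compared here between cultures exposed to AG-205 and cultures exposed to the solvent DMSO. The libraries were chosen by the cell line and the treatment in their sample names, which gave 6 of the 12 libraries of the series, 3 with AG-205 and 3 with DMSO. AG-205 is a small molecule sold as a ligand of PGRMC1, a heme-binding membrane protein of the MAPR family, and how specific it is has been questioned. Both groups were the same line, harvested after 32 h, and the treated group received AG-205 at a single dose of 15 µM, so a dose or time course within the response cannot be read from these libraries. The other 6 libraries came from T-HESC, an immortalized line of human endometrial stromal cells handled in the same way, and they enter only where the response of a gene was compared between the lines. HEC-1A is 1 cancer line grown without stroma, which limits it as a model of the uterine epithelium.

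The deposited values were read counts per gene, of 7168542 to 12966177 per HEC-1A library with AG-205 and 9762159 to 10974428 with DMSO. Levels are given as CPM, the count relative to the scaled library total, in the order of replicates 1, 2 and 3. The label was borne out by the epithelial markers: 7 of 8 passed the filter on low counts (MUC1 did not), and their summed level was 2835 to 2912 CPM with AG-205 and 1936 to 2176 CPM with DMSO. The 8 fibroblast markers summed to 12.8 to 16.9 and 9.69 to 15.9 CPM, and 3 of them passed that filter. The main axis of variation (51.7% of the variance) parted the treatments, and the next (24.7%) set the shallowest library, AG-205 replicate 3, apart from the other 5. In that library short genes read higher and long genes lower than in the other 2 AG-205 libraries, with a median log2 ratio of 0.23 in the tenth of genes with the least exon sequence and -0.18 in the tenth with the most (10735 genes of at least 5 CPM), so the main counts below are also given without it. At an equal depth of 7168542 counts, 22137 to 22600 genes would hold a count with AG-205 and 21146 to 21267 with DMSO, and the 2 ranges did not overlap.

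Cells adjust their lipid supply through the SREBP transcription factors. These are held in the endoplasmic reticulum by SCAP and INSIG proteins while sterols are plentiful, and are cleaved in the Golgi and sent to the nucleus when sterols fall or cannot reach the endoplasmic reticulum. SREBP-2 mainly drives genes of cholesterol synthesis and uptake and SREBP-1 those of fatty acids and phospholipids, usually together with the factor NF-Y. The enzymes of the cholesterol pathway itself are counted below but not described, since the question here was what else moved in these epithelial cells.

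A gene counted as called when edgeR's quasi-likelihood test, adjusted after Benjamini-Hochberg over 14122 genes, gave a p under 0.05 and its level changed more than 2-fold, that is by over 1 on the log2 scale. With AG-205, 364 genes were higher, which is 2.58 percent of the genes tested, and 29 were lower, which is 0.205 percent. Only 19 of the 364 were enzymes of cholesterol synthesis, out of 21 listed, which left 345 other raised genes. Of those 345, 265 were protein coding and 55 were long noncoding RNAs, 64 stood in another of the gene lists used here and 281 in none. Most were weakly expressed, with a median level of 5.87 CPM with AG-205, and 101 had a mean under 1 CPM with DMSO, but 31 had a mean of at least 100 CPM over the 6 libraries. The median log2 fold change was 1.44 among the 345 and -1.19 among the 29 lowered genes; 65 of the former and 2 of the latter changed more than 4 times. Without AG-205 replicate 3, 524 genes outside the cholesterol enzymes were called higher and 46 lower.

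Many smaller changes passed the test as well. With no limit on the fold, 1038 genes were higher (7.35 percent of those tested) and 605 lower (4.28 percent). Every AG-205 library lay above every DMSO library for 2351 genes (16.6 percent) and below for 2085 (14.8 percent), and the 2 groups did not overlap for 343 of the 345 raised genes and all 29 lowered genes. The median log2 fold change over all genes tested was 0.01, with a median standard error (SE) of 0.13. Long noncoding RNAs were called higher in 55 of 1372 tested (median log2 fold change 0.22) and protein-coding genes in 284 of 11903 (median -0.01), and the share of all reads on long noncoding RNAs was 1.12, 1.13 and 1.17% with AG-205 and 0.879, 0.891 and 0.870% with DMSO. The part of this shift in the noncoding calls was not tested.

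**Figure D1:**
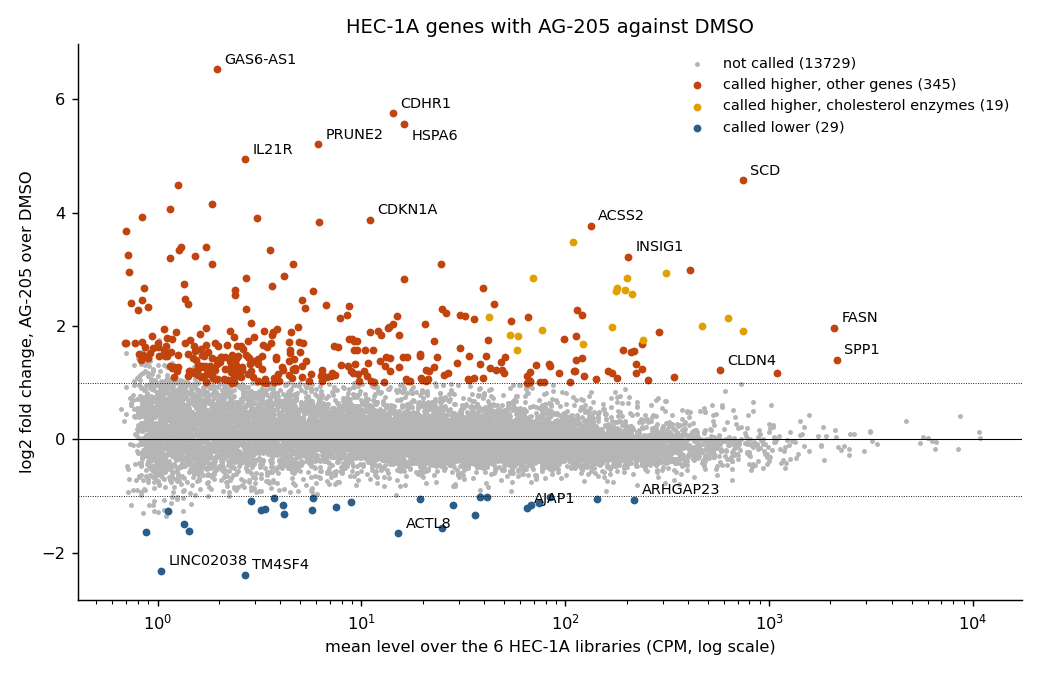
Each point is 1 of the 14122 genes tested in HEC-1A, with its mean CPM over 6 libraries on the log-scaled x axis and its log2 fold change, AG-205 over DMSO, on the y axis. The 345 raised genes outside the cholesterol enzymes spread from under 1 to over 1000 CPM, whereas the 29 lowered genes lie close to the limit of -1, with TM4SF4 and LINC02038 the only ones past -2.

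Some genes that control the uptake, transport and sensing of sterols were among the most raised. Of 30 listed genes, 29 were tested, 8 were called higher (27.6%) and none lower, against 2.58 percent and 0.205 percent of all genes; with no fold limit 14 were higher and 3 lower, and the median log2 fold change was 0.22. INSIG1, which anchors SCAP and SREBP in the endoplasmic reticulum and is itself an SREBP target (GRCh38 chr7:155297776-155310235), stood at 346, 421 and 333 CPM with AG-205 and 39.5, 37.2 and 41.1 CPM with DMSO. All 3 treated libraries lay far above all 3 controls, at a log2 fold change of 3.22 ± 0.12 (SE, as in all values below; edgeR's quasi-likelihood adjusted p = 4.11e-09).

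The cytosolic sterol carrier STARD4 rose 5.26-fold (2.40 ± 0.13), TMEM97, a membrane protein that binds the cholesterol transporter NPC1, 2.98-fold (1.58 ± 0.09) and ERG28, a scaffold of sterol demethylation, 3.55-fold (1.83 ± 0.10), each with no overlap between the groups. LIPA, the lysosomal acid lipase that frees cholesterol from its esters, read 53.8, 62.8 and 75.5 CPM with AG-205 and 25.9, 27.8 and 27.7 CPM with DMSO (1.23 ± 0.13, adjusted p = 4.97e-05). Among the members below the 2-fold limit, SREBF2, the gene of SREBP-2, rose from 419.7, 438 and 444 CPM with DMSO to 878, 826 and 643 CPM with AG-205 (0.85 ± 0.12, adjusted p = 0.000549), and NPC1 had a log2 fold change of 0.66 ± 0.11 (adjusted p = 0.00288). MYLIP, a sterol-regulated ubiquitin ligase, was lower, at 6.69, 5.56 and 8.44 CPM against 11.4, 11.1 and 12.99 CPM (-0.80 ± 0.17, adjusted p = 0.00944). SREBF1, the gene of SREBP-1, showed no difference that the test could call (-0.00 ± 0.11, adjusted p = 0.996), and its groups overlapped.

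Fatty acid synthesis was the list with the largest share of raised members outside the cholesterol pathway. Of 22 listed genes 17 were tested, 7 were called higher (41.2%, against 2.58 percent of all genes) and none lower. With no fold limit 14 were higher, against 7.35 percent of all genes, and the median log2 fold change was 0.86. SCD, the desaturase that makes oleic acid from stearic acid (GRCh38 chr10:100347233-100364826), read 1402, 1654 and 1211 CPM with AG-205 and 52.98, 63.3 and 63.5 CPM with DMSO. It rose 23.7-fold, the smallest p of all genes outside the cholesterol enzymes (log2 fold change 4.57 ± 0.14, adjusted p = 2.23e-09). ACSS2, which turns acetate into cytosolic acetyl-CoA (GRCh38 chr20:34872146-34927962), read 251, 275 and 219 CPM with AG-205 and 19.2, 19.5 and 15.8 CPM with DMSO, a 13.7-fold rise (3.77 ± 0.13, adjusted p = 3.24e-09). The treated and control libraries of both genes were separated by a wide gap.

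FASN, the fatty acid synthase and the most abundant member, read 4088, 3808 and 2093 CPM with AG-205 and 789.6, 902 and 863 CPM with DMSO (1.97 ± 0.20, adjusted p = 4.46e-05). AG-205 replicate 3 again fell short of the other 2 treated libraries, and the log2 fold change was 2.21 without it. The elongase ELOVL6 read 186, 211 and 196 CPM with AG-205 and 44.1, 43.1 and 43.2 CPM with DMSO (2.19 ± 0.09, adjusted p = 2.34e-08), with hardly any spread within a group. The citrate carrier SLC25A1 (1.06 ± 0.10), MID1IP1, which promotes the active polymer of acetyl-CoA carboxylase (1.32 ± 0.11), and the lipid-droplet acyltransferase and lipase PNPLA3 (1.62 ± 0.32) completed the called members. The call of SLC25A1 was lost without AG-205 replicate 1, at 0.98. ACLY, which supplies acetyl-CoA from citrate, rose just under the limit (0.98 ± 0.13, adjusted p = 0.000424) and passed it without AG-205 replicate 3 or DMSO replicate 2 (1.13 and 1.04), and the desaturase FADS1 rose by 0.72 ± 0.09 (adjusted p = 0.000175).

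The next list held the step from fatty acid to membrane lipid. Of 24 tested genes of acyl-CoA and phospholipid synthesis 5 were called higher (20.8%, against 2.58 percent of all genes), none was called lower, and the median log2 fold change was 0.15. ACSL1, which activates long-chain fatty acids with coenzyme A, read 183, 211 and 174 CPM with AG-205 and 40.4, 40.1 and 36.9 CPM with DMSO (2.27 ± 0.10, adjusted p = 4.16e-08). LPIN1, the phosphatidate phosphatase, read 104, 125 and 92.8 CPM with AG-205 and 23.02, 23.8 and 25.1 CPM with DMSO (2.16 ± 0.12, adjusted p = 1.53e-07). Both rose more than 4 times, and no treated library came near a control.

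PCYT2 of phosphatidylethanolamine synthesis rose by 1.76 ± 0.13 and the lysophosphatidylcholine acyltransferase LPCAT1 by 1.43 ± 0.14. ACSL4, which prefers arachidonic acid, lay at the limit (1.00 ± 0.10), and its call was lost without AG-205 replicate 2, AG-205 replicate 3 or DMSO replicate 3 (0.97 to 0.98). None of 11 genes of lipid droplets and neutral lipid and none of 10 PPAR targets was called in either direction (medians 0.07 and 0.01), and with no fold limit 1 of the former was lower; at 2.58 percent of all genes, lists this short would hold few calls, and PNPLA3 is counted above. Among 8 tested LXR targets, 2 apolipoprotein genes were called higher, APOC1 (1.63 ± 0.20, adjusted p = 0.000263) and its neighbour APOE (1.01 ± 0.27, adjusted p = 0.0285), and the APOE call was lost without AG-205 replicate 2, DMSO replicate 1 or DMSO replicate 2 (0.76 to 0.89). With no fold limit 2 of the 8 LXR targets were higher and 1 was lower. The groups overlapped for 4 of the 8, against 9686 of all 14122 genes tested. The median log2 fold change of that list was 0.03 and its lowest value -0.80, so the list did not share a direction. APOC1 shares 40.7% of its exon sequence with another gene on the same strand.

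Some strongly raised genes belonged to none of these lists. CDHR1, a cadherin known from photoreceptors, read 27.6, 31.4 and 25.4 CPM with AG-205 and 0.658, 0.091 and 0.824 CPM with DMSO, the largest fold of any gene of at least 5 CPM (5.75 ± 0.28, adjusted p = 5.96e-08). SAT1, the acetyltransferase that starts the breakdown of spermidine and spermine, read 81.04, 94.05 and 86.99 CPM with AG-205 and 21.1, 18.8 and 22.1 CPM with DMSO (2.08 ± 0.11, adjusted p = 9.34e-08). SLC2A6, a sugar transporter of the lysosome, read 47.7, 47.95 and 35.8 CPM with AG-205 and 4.13, 5.37 and 6.08 CPM with DMSO (3.09 ± 0.17, adjusted p = 1.46e-07). In each the lowest treated library was several times the highest control.

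LIPG, a secreted phospholipase that acts on high-density lipoprotein, rose 6.35-fold (2.67 ± 0.15) from 10.1, 10.01 and 12.3 CPM, and LCP1, the actin-bundling protein L-plastin, 4.68-fold (2.23 ± 0.12) from 8.27, 9.55 and 9.48 CPM. PRUNE2 read 11.8, 15.8 and 8.30 CPM with AG-205 and 0.188, 0.728 and 0 CPM with DMSO (5.21 ± 0.46), so that its fold rests on a control level at the limit of detection. SNAI3-AS1, a long noncoding RNA, read 28.8, 27.3 and 28.8 CPM with AG-205 and 4.32, 4.00 and 3.50 CPM with DMSO (2.83 ± 0.14, adjusted p = 5.18e-08). Its promoter appears to overlap that of the raised cholesterol enzyme gene MVD on the opposite strand. NF-Y boxes lie at -201, -166 and -127 bases from its start and, in mirrored order and strand, at -85, -120 and -159 from that of MVD. Whether SNAI3-AS1 rose apart from MVD was not tested. Of the exon sequence of SNAI3-AS1, 2.60% is shared with SNAI3 on the other strand. Overlap of this kind was common: 130 of the 345 raised genes share exon sequence with a gene on the opposite strand, and the strand setting of the counting is not given in the sources used here.

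The counting of a pair of raised transcripts is doubtful. HSD17B7P2 is a pseudogene of the cholesterol enzyme HSD17B7 and shares 89.8% of its exon sequence with a second annotated entry of the same symbol; it read 8.64, 9.69 and 7.47 CPM with AG-205 and 1.32, 1.82 and 1.55 CPM with DMSO (2.46 ± 0.21). RN7SL5P, a copy of the signal recognition particle RNA, read 6.77, 8.09 and 19.9 CPM with AG-205 and 0.564, 0.910 and 0.824 CPM with DMSO (3.83 ± 0.48), and AG-205 replicate 3 was far above the other 2 treated libraries. The values of both are therefore uncertain.

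**Figure D2:**
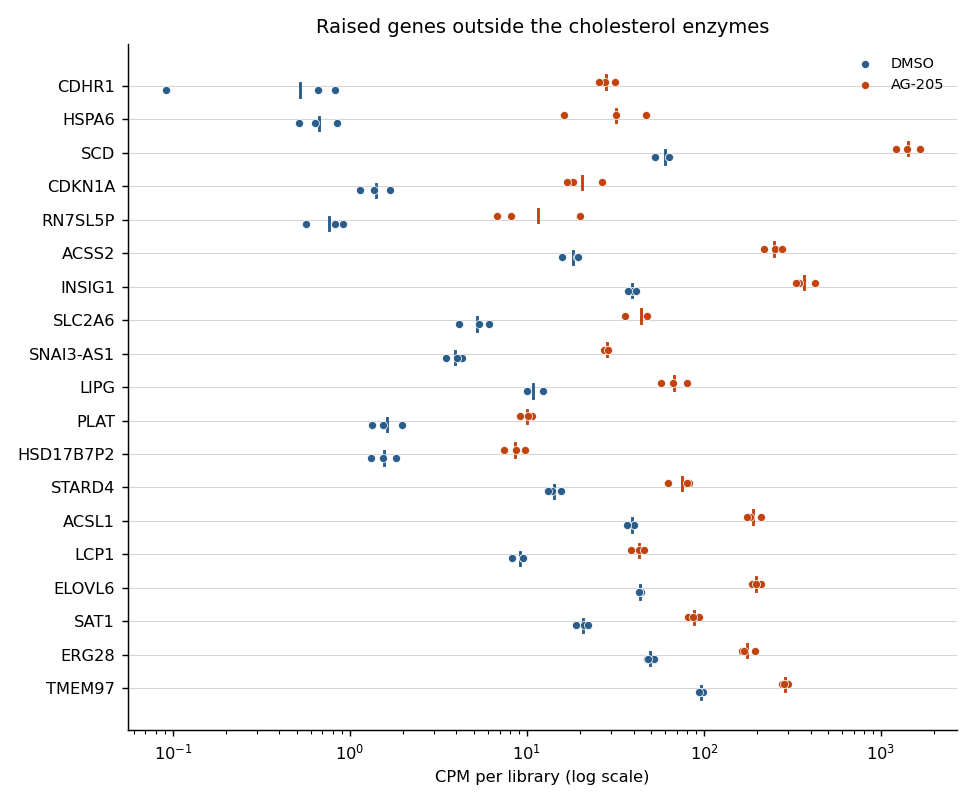
Levels of 19 raised genes outside the cholesterol enzymes in each HEC-1A library, in CPM on a log scale, with a point per library and a bar at each group mean; PRUNE2 is left out because a control library read 0. The groups are separate for every gene shown, and SCD, ACSS2 and INSIG1 combine a large fold with levels above 200 CPM in every treated library.

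Several abundant genes outside the naming rule were picked after their values were seen. SPP1, the secreted matrix protein osteopontin, was among the most abundant raised transcripts, at 2960.3, 3049 and 3322 CPM with AG-205 and 1229, 1106 and 1183 CPM with DMSO (1.41 ± 0.10, adjusted p = 1.55e-06). RNF145, a sterol-sensing ubiquitin ligase of the endoplasmic reticulum, read 221, 262 and 221 CPM with AG-205 and 104, 101 and 109.9 CPM with DMSO (1.16 ± 0.10, adjusted p = 9.27e-06). MMAB, an enzyme of cobalamin metabolism that shares a bidirectional promoter with the mevalonate kinase gene, read 66.9, 66.7 and 76.3 CPM with AG-205 and 29.8, 26.7 and 24.9 CPM with DMSO (1.36 ± 0.11, adjusted p = 4.55e-06). All 3 were higher in every treated library than in any control.

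Some genes of the early response to stress and growth signals rose. Of 30 tested immediate early and AP-1 genes, 7 were called higher (23.3%, against 2.58 percent of all genes) and none lower. The groups overlapped for 14 of the 30, against 9686 of all 14122 genes tested, and the median log2 fold change was 0.28. The 7 calls became 5 without AG-205 replicate 2 or DMSO replicate 1 and 2 in a fit of all 12 libraries. KLF6, a zinc finger factor induced by injury, read 115, 141 and 131 CPM with AG-205 and 58.1, 58.7 and 54.6 CPM with DMSO (1.17 ± 0.10, adjusted p = 1.02e-05). FOSB, an AP-1 subunit, read 4.67, 9.19 and 3.46 CPM with AG-205 and 0.470, 0.273 and 0.412 CPM with DMSO (3.91 ± 0.47, adjusted p = 0.000189), and its relative FOS 5.99, 9.52 and 4.29 CPM with AG-205 and 2.07, 2.27 and 2.47 CPM with DMSO (1.57 ± 0.29, adjusted p = 0.0039). AG-205 replicate 2 was the highest library for all 3 genes, and AG-205 replicate 3 the lowest treated library for FOSB and FOS.

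The nuclear receptor NR4A1 rose by 1.76 ± 0.25, ATF3 by 1.37 ± 0.16 and ZFP36, which destabilizes cytokine mRNAs, by 1.06 ± 0.16. JUN lay at the limit (1.00 ± 0.13), with 87.2, 104 and 69.4 CPM with AG-205 and 42.1, 43.5 and 44.8 CPM with DMSO. The call of JUN was lost without AG-205 replicate 1, AG-205 replicate 2 or DMSO replicate 1 (0.86 to 1.00) and that of ZFP36 without AG-205 replicate 2 or DMSO replicate 1 (0.86 and 0.99). No gene among 11 of the EGFR family and its ligands was called (median -0.04).

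Part of the genes of endoplasmic reticulum stress and of autophagy rose, mostly by less than 2-fold. None of 23 tested genes of the unfolded protein response was called, yet 10 were higher and none lower with no fold limit, against 7.35 percent and 4.28 percent of all genes (median 0.28). The chaperone HSPA5 read 967, 1111 and 984 CPM with AG-205 and 676, 626 and 649 CPM with DMSO (0.65 ± 0.10, adjusted p = 0.000929), and HERPUD1 and DNAJB9, picked after their values were seen, had log2 fold changes of 0.74 ± 0.11 and 0.96 ± 0.15; the latter passed the limit when some single libraries were left out, at up to 1.08. Of 22 autophagy genes and TFE factors 10 were higher with no fold limit (median 0.39), and 2 were called: WIPI1, which binds the forming autophagosome (1.29 ± 0.12, adjusted p = 2.81e-05), and ATG9B, whose call was lost without AG-205 replicate 1, AG-205 replicate 2, DMSO replicate 1 or DMSO replicate 3 (0.96 to 1.31). Among 34 lysosomal genes 6 were higher and 1 lower with no fold limit (median 0.21), and the sialidase NEU1 was the only call, at 322, 337 and 316 CPM with AG-205 and 112, 107 and 111 CPM with DMSO (1.56 ± 0.09, adjusted p = 1.49e-07). The lowered member was the protease CTSB, at -0.60 ± 0.08 (adjusted p = 0.00066). Calls were thus few in these lists: none in the unfolded protein response and 2 among the autophagy genes. The 1 call among 34 lysosomal genes (2.94%) was near the share of all genes, 2.58 percent.

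The integrated stress response was mixed, with 5.26% of its tested genes called higher against 2.58 percent of all genes. Of 38 genes tested 2 were called higher, PPP1R15A, which brings the phosphatase to eIF2α (1.11 ± 0.10, adjusted p = 2.21e-05), and ATF3; with no fold limit 6 were higher and 2 lower, and the median was -0.01. DDIT3, the factor CHOP, rose by 0.74 ± 0.10 (adjusted p = 0.000748) and the secreted stress cytokine GDF15 by 0.61 ± 0.09 (adjusted p = 0.000974). In the heat shock list (16 tested, median -0.04) CRYAB was called, at 6.23, 5.31 and 5.67 CPM with AG-205 and 2.91, 1.73 and 2.78 CPM with DMSO (1.22 ± 0.23, adjusted p = 0.00452), and HSPA1B rose by 0.82 ± 0.12 (adjusted p = 0.000929).

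HSPA6, a strictly inducible HSP70 outside that list, went from 0.845, 0.637 and 0.515 CPM with DMSO to 31.9, 47.02 and 16.2 CPM with AG-205 (5.57 ± 0.44, adjusted p = 4.59e-06). The treated libraries differed widely among themselves, and all were far above the controls. Of 26 NRF2 and glutathione genes 1 was called, HMOX1, which breaks down heme (1.22 ± 0.15, adjusted p = 0.000215), and 4 were higher with no fold limit (median 0.10). A list of AHR targets and other genes of the response to xenobiotics had 10 tested members. Of these 2 were called higher, against 2.58 percent of all genes: CYP4F3 (1.58 ± 0.19, adjusted p = 0.000162) and CYP1B1 (1.36 ± 0.36, adjusted p = 0.0304). With no fold limit 4 were higher and none lower (median 0.36). The groups overlapped for 5 of the 10, against 9686 of all 14122 genes tested. CYP1A1, the usual AHR target, rose by less than 2-fold, from 5.45, 7.91 and 7.63 to 11.6, 13.5 and 13.00 CPM (0.86 ± 0.17, adjusted p = 0.0059). The call of CYP1B1 was lost without AG-205 replicate 2, DMSO replicate 1 or DMSO replicate 3 (0.99 to 1.44).

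A few arrest genes rose, and part of the machinery of the cell cycle was slightly lower. Of 12 tested genes of cyclin D and the CDK inhibitors 2 were called higher, CDKN1A and CDKN2B, against 2.58 percent of all genes, and none lower. With no fold limit 2 were higher and 3 lower (median -0.04). CDKN1A, the inhibitor p21, read 18.1, 26.6 and 16.9 CPM with AG-205 and 1.69, 1.36 and 1.13 CPM with DMSO (3.87 ± 0.24, adjusted p = 5.83e-07). SFN, the epithelial 14-3-3 sigma protein, read 356, 396 and 333 CPM with AG-205 and 129, 109 and 100.4 CPM with DMSO (1.68 ± 0.11, adjusted p = 1.04e-06). They were the 2 members called among 23 genes of cell cycle arrest and death, of which 5 were higher and 2 lower with no fold limit (median 0.16). CDKN2B, the inhibitor p15, was called from 2.82, 2.27 and 2.37 to 6.77, 5.90 and 3.32 CPM (1.14 ± 0.26, adjusted p = 0.0149), a call lost without AG-205 replicate 1, DMSO replicate 2 or DMSO replicate 3 (0.94 to 1.11), and CCND1, the cyclin that drives entry into the cycle, was lower by less than 2-fold (-0.40 ± 0.09, adjusted p = 0.015).

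None of 40 replication and mitosis genes was called, but 15 were lower and none higher with no fold limit, against 4.28 percent and 7.35 percent of all genes. The groups did not overlap for 26 of the 40, all lower with AG-205, against 14.8 percent of all genes, and the median log2 fold change was -0.31. CDC20, an activator of mitotic exit picked after its values were seen, read 238, 194 and 230.0 CPM with AG-205 and 364, 340.1 and 347 CPM with DMSO (-0.67 ± 0.10, adjusted p = 0.000996). MKI67, the proliferation marker Ki-67, read 639, 576 and 404 CPM with AG-205 and 721, 821 and 789 CPM with DMSO (-0.52 ± 0.14, adjusted p = 0.0343), and AG-205 replicate 3 was the lowest. The phosphatase CDC25A and the helicase subunit MCM7 had log2 fold changes of -0.51 ± 0.09 and -0.35 ± 0.10.

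Of 10 tubulins 4 were lower with no fold limit and none higher (median -0.33). TUBA1B read 462, 422 and 423 CPM with AG-205 and 688, 661 and 674 CPM with DMSO (-0.63 ± 0.09, adjusted p = 0.000714), and TUBA1B-AS1 on the other strand overlaps a large part of its exon sequence. Mitochondrial respiration changed little: none of the 13 genes of the mitochondrial genome passed in either direction (median 0.03), and of 30 nuclear genes 3 were lower, among them SDHA (-0.61 ± 0.11, adjusted p = 0.00287).

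**Figure D3:**
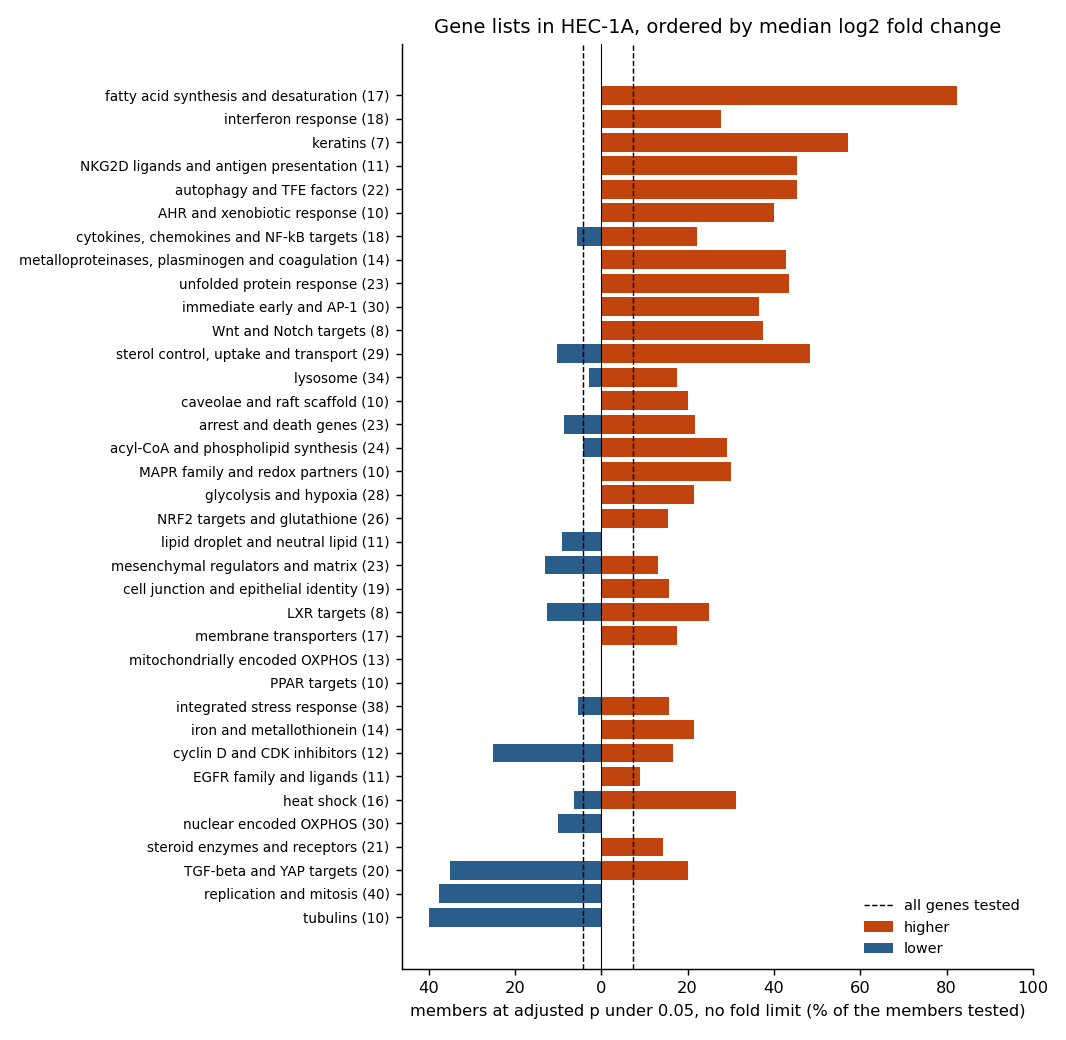
Share of the tested members of each of 36 gene lists that were higher (right) or lower (left) with AG-205 at an adjusted p under 0.05 with no fold limit, in percent, ordered by median log2 fold change, with the number tested in parentheses. Dashed lines mark the shares among all genes, 7.35 percent higher and 4.28 percent lower; fatty acid synthesis stands at the top and replication, mitosis and tubulins at the bottom.

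Genes of the cell surface and its surroundings were raised in part. Of 14 tested genes of metalloproteinases, plasminogen and coagulation, 5 were called higher (35.7%, against 2.58 percent of all genes) and none lower (median 0.30). PLAU, the urokinase that activates plasminogen, read 149.8, 159 and 156 CPM with AG-205 and 67.4, 63.7 and 70.7 CPM with DMSO (1.20 ± 0.09, adjusted p = 2.5e-06). Its receptor PLAUR (1.73 ± 0.27), the other plasminogen activator PLAT (2.62 ± 0.20) and thrombomodulin, THBD (1.17 ± 0.18), rose as well. MMP11 was called at 1.20 ± 0.29, and its call was lost when any library other than AG-205 replicate 3 was left out.

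Among epithelial structural genes, 2 of 7 keratins were called higher, KRT19 at 248, 249 and 236 CPM with AG-205 and 118, 110.4 and 115 CPM with DMSO (1.09 ± 0.09, adjusted p = 4.59e-06) and KRT15 (1.20 ± 0.24), while KRT8 rose by 0.48 ± 0.09 (adjusted p = 0.0058; 51 annotated pseudogenes carry its name). CLDN4, a tight-junction claudin, was the only call among 19 junction genes, at 829.6, 889 and 694 CPM with AG-205 and 367, 332 and 337 CPM with DMSO (1.22 ± 0.11, adjusted p = 1.37e-05). Of all genes tested, 2.58 percent were called higher. KRT8, KRT19 and CLDN4 are also among the 8 epithelial markers summed above.

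Ligands seen by immune cells showed a few calls. MICA, a stress ligand for the receptor NKG2D of natural killer cells, read 68.7, 65.6 and 73.03 CPM with AG-205 and 30.2, 29.9 and 31.5 CPM with DMSO (1.18 ± 0.10, adjusted p = 5.87e-06), and NLRC5, which activates the genes of MHC class I, rose by 1.47 ± 0.21 (adjusted p = 0.000708); they were the 2 called members of 11, and 5 were higher with no fold limit (median 0.43). Of 18 interferon response genes, IFIT3 (1.21 ± 0.17), IFIT1 (1.02 ± 0.25) and IFI27 (1.47 ± 0.41) were called (median 0.59). IFIT3 read 26.5, 24.9 and 39.3 CPM with AG-205 and 14.1, 12.4 and 12.2 CPM with DMSO, with AG-205 replicate 3 the highest, and the calls of IFIT3 and IFIT1 were lost without that library (0.99 and 0.66). The calls of IFIT1 and IFI27 were also lost without any DMSO library, and that of IFI27 without AG-205 replicate 2. Of 18 cytokine and NF-kB genes CCL20 (1.65 ± 0.34) and IL1B (1.28 ± 0.31) were called higher (11.1%, against 2.58 percent of all genes) and TNFAIP2, described below, was called lower, and IL1B lost its call when any library other than AG-205 replicate 3 was left out.

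Glycolysis and hypoxia genes gave 3 calls among 28, all higher (10.7%, against 2.58 percent of all genes, median 0.11). ALDOC, a brain-type aldolase, read 27.2, 23.3 and 22.96 CPM with AG-205 and 5.17, 5.00 and 6.18 CPM with DMSO (2.17 ± 0.14, adjusted p = 9.6e-07), and PFKFB4 and NDRG1 rose by 1.48 ± 0.11 and 1.33 ± 0.14. Of 21 steroid enzymes and receptors HSD17B12, which also works in fatty acid elongation, was called at the limit (1.01 ± 0.12; 0.87 without AG-205 replicate 3 and 0.99 without DMSO replicate 1, both below it), as was HSD17B14 (1.43 ± 0.25). EHD2 of the caveola neck was called among 10 caveolar and raft genes (1.07 ± 0.15), but not without AG-205 replicate 2 (0.91), and HES4 among 8 Wnt and Notch targets (1.73 ± 0.20). None of 17 membrane transporters and ion channels was called. In none of these lists was a majority of the members called.

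The MAPR family, to which the named target of AG-205 belongs, held no call among 10 genes of the family and its redox partners (median 0.13), although 3 were higher with no fold limit. PGRMC1 read 170.3, 164 and 172 CPM with AG-205 and 156, 156 and 157 CPM with DMSO (0.11 ± 0.08, adjusted p = 0.44), and the groups did not overlap. PGRMC2 had a log2 fold change of 0.27 ± 0.11 (adjusted p = 0.139). CYB5D2, also called neuferricin, rose by 0.48 ± 0.12 (adjusted p = 0.0215) and POR, which passes electrons to the sterol demethylase CYP51A1, by 0.49 ± 0.09 (adjusted p = 0.00469).

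Lowered genes were few and mostly changed by little more than 2-fold. Of the 29, 24 were protein coding, 17 had a mean of at least 5 CPM and 3 stood in a gene list. The most abundant was ARHGAP23. This activator of GTP hydrolysis by small GTPases read 167, 128 and 128 CPM with AG-205 and 281, 309 and 296 CPM with DMSO (-1.07 ± 0.11, adjusted p = 6.9e-05). TNFAIP2, a TNF-induced protein of membrane protrusions, read 102, 99.4 and 77.5 CPM with AG-205 and 191, 198 and 190.2 CPM with DMSO (-1.05 ± 0.11, adjusted p = 5.7e-05). DDC, the decarboxylase that makes dopamine and serotonin, read 49.04, 40.3 and 51.5 CPM with AG-205 and 106, 101 and 100.5 CPM with DMSO (-1.13 ± 0.11, adjusted p = 2.15e-05). For all 3 the highest treated library was well below the lowest control.

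AJAP1, a protein of adherens junctions, read 44.4, 37.2 and 34.99 CPM with AG-205 and 85.9, 99.8 and 86.6 CPM with DMSO (-1.22 ± 0.11, adjusted p = 2.01e-05), and ARHGAP6, of the same family as ARHGAP23, 18.3, 18.5 and 14.9 CPM with AG-205 and 38.4, 38.8 and 39.4 CPM with DMSO (-1.16 ± 0.11). VSIR, the immune checkpoint VISTA, read 22.9, 16.6 and 21.99 CPM with AG-205 and 57.6, 47.9 and 48.7 CPM with DMSO (-1.33 ± 0.13, adjusted p = 4.44e-05). ACTL8, an actin-like protein, read 7.63, 6.24 and 8.16 CPM with AG-205 and 23.8, 24.5 and 20.6 CPM with DMSO and had the smallest p of the lowered genes (-1.66 ± 0.14, adjusted p = 1.14e-05). No treated library of these 4 genes reached the lowest control.

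CCN2, also known as CTGF, a secreted target of YAP and TGF-beta, read 43.2, 30.00 and 52.8 CPM with AG-205 and 93.6, 87.1 and 98.8 CPM with DMSO (-1.16 ± 0.16, adjusted p = 0.000573). Its call was lost without AG-205 replicate 2 (-0.96), the lowest library. Its list, which mixes TGF-beta and YAP targets, did not share a direction: of 20 tested, 4 were higher and 7 lower with no fold limit (median -0.15). Among all genes 7.35 percent were higher and 4.28 percent lower, so changes in both directions, and most of all lower levels, were more common in the list. CCN1 (-0.51 ± 0.10), AJUBA (-0.54 ± 0.09) and AMOTL2 (-0.79 ± 0.12) were lower, and ANKRD1 (1.57 ± 0.16, adjusted p = 5.7e-05) and TGFB1 (1.34 ± 0.15, adjusted p = 0.000107) were called higher. The muscle-type relative ANKRD2, in no list, went the other way from ANKRD1, at 14.4, 7.92 and 15.8 CPM with AG-205 and 39.6, 34.5 and 37.00 CPM with DMSO (-1.57 ± 0.19).

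Others of the 29 encode secreted signals and receptors. WNT7B read 5.06, 3.79 and 4.98 CPM with AG-205 and 11.4, 9.83 and 10.2 CPM with DMSO (-1.19 ± 0.17), WNT10B 6.15, 4.63 and 6.09 CPM with AG-205 and 11.3, 12.6 and 12.3 CPM with DMSO (-1.11 ± 0.16) and the receptor BMPR1B 1.95, 1.35 and 2.35 CPM with AG-205 and 3.95, 3.91 and 3.81 CPM with DMSO (-1.08 ± 0.25). The receptor phosphatase PTPRD (-1.02 ± 0.13) and the collagen gene COL12A1 (-1.02 ± 0.15) lay at the limit. The 2 largest falls were in weakly expressed genes, TM4SF4, a tetraspan membrane protein, at 1.01, 0.506 and 1.11 CPM with AG-205 and 5.26, 4.00 and 4.23 CPM with DMSO (-2.39 ± 0.30), and the noncoding LINC02038, at 0.156, 0.674 and 0.138 CPM with AG-205 and 1.97, 1.64 and 1.65 CPM with DMSO (-2.31 ± 0.47). The remaining lowered genes with a symbol, between -1.63 and -1.02 on the log2 scale, were ANKRD33B, ARHGAP23P1, CHD9NB, EPB41L4A, GPRC5B, NCMAP, PKHD1, PSAPL1, RPL7AP75, U3, VSTM1 and ZNF488.

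Leaving out 1 library ended the call of 15 of the 28 lowered genes with a symbol, 7 of them among those given above with values. Without AG-205 replicate 2 these were CCN2, ARHGAP23 (-0.99), WNT10B (-0.97) and BMPR1B (-0.88), and without AG-205 replicate 3 TNFAIP2 (-0.94), PTPRD (-0.93) and COL12A1 (-0.87). PTPRD also fell below the limit without DMSO replicate 2 (-0.92), COL12A1 without DMSO replicate 2 or 3 (-0.94 and -0.98), and BMPR1B lost significance without any single DMSO library. Among the genes given by symbol alone, the calls of ANKRD33B, ARHGAP23P1, CHD9NB, GPRC5B, NCMAP, PKHD1, PSAPL1 and VSTM1 were lost without at least 1 library, at -1.83 to -0.76.

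**Figure D4:**
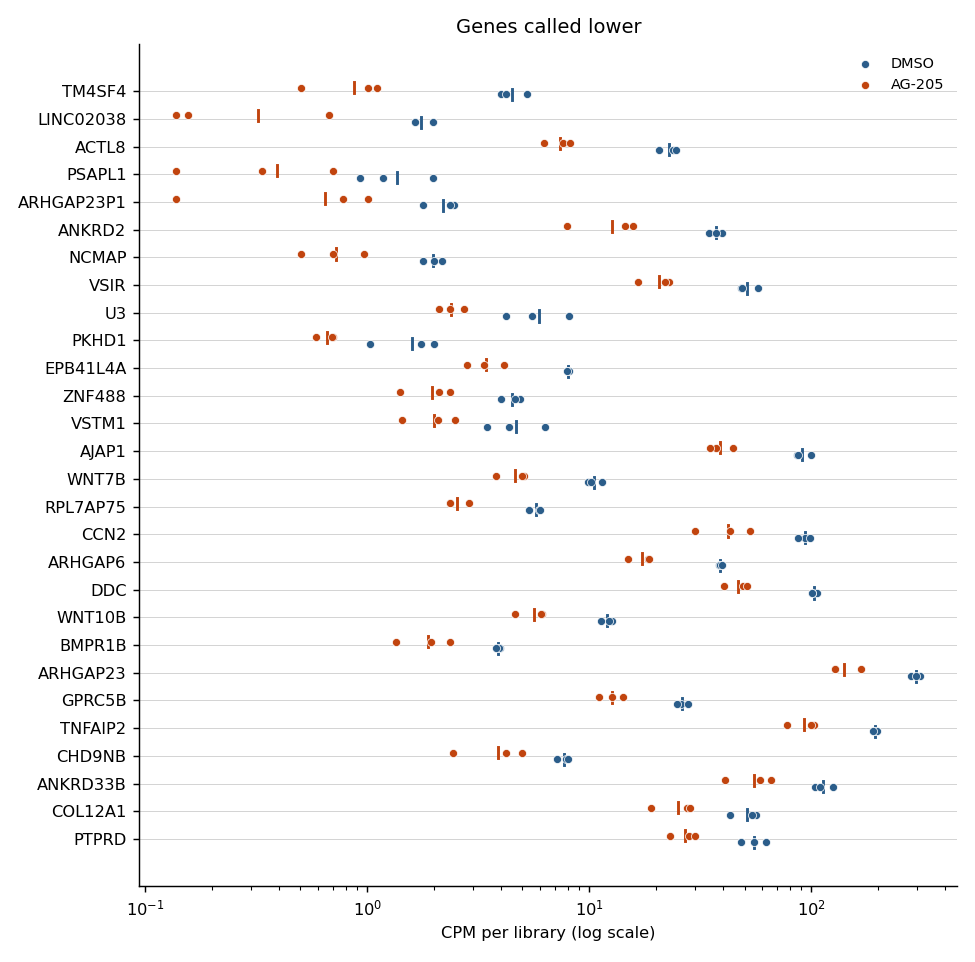
Levels of the 28 lowered genes that have a symbol, in CPM on a log scale, with a point per HEC-1A library and a bar at each group mean, ordered by log2 fold change. Every AG-205 library lies below every DMSO library, and most genes sit under 10 CPM.

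Some genes were almost silent without AG-205. Of the 345 raised genes 12 had at most 3 counts in every DMSO library. IL21R, the interleukin-21 receptor of lymphoid cells, had 64, 72 and 33 counts with AG-205 and 1, 2 and 2 with DMSO, a ratio of 33.2 in CPM over the summed libraries (exact 95% interval 13.9 to 104, counting error only). NPC1L1, the intestinal cholesterol importer, had 53, 42 and 21 against 2, 2 and 2 counts, a ratio of 19.0 (8.46 to 52.8). PRDM16, a regulator of brown fat, had 33, 23 and 20 against 2, 1 and 0 counts, a ratio of 24.9 (8.19 to 123). All 3 were found in every treated library and at 0 to 2 counts in each control.

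GAS6-AS1, a noncoding RNA beside GAS6, had 52, 64 and 16 counts with AG-205 and 0, 0 and 1 with DMSO, a ratio of 129.5 (22.9 to 5154). GAS6, a ligand of the TAM receptor kinases picked after its values were seen, read 3.04, 2.78 and 3.73 CPM with AG-205 and 0.376, 0.273 and 0.206 CPM with DMSO (3.39 ± 0.36, adjusted p = 6.27e-05). The genes share 5.90% of the exon sequence of GAS6-AS1 on opposite strands, so a small part of their reads may not be told apart.

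The response was set beside that of T-HESC with an interaction test over 16132 genes. The effect was higher in HEC-1A for 21 genes (0.13 percent) and higher in T-HESC for 7 (0.0434 percent) at an adjusted p under 0.05, and a biological coefficient of variation of 33.6% in T-HESC, against 10.1% in HEC-1A, limited what could be called. CDKN1A rose by 3.87 ± 0.24 in HEC-1A and by 0.61 ± 0.27 in T-HESC, a difference of 3.23 ± 0.37 (adjusted p = 0.00546, edgeR's quasi-likelihood test). Its mean level rose from 1.40 to 20.5 CPM in HEC-1A and from 399 to 611 CPM in T-HESC. The log2 difference thus sets very unlike starting levels side by side. SFN had log2 fold changes of 1.68 ± 0.11 and -1.02 ± 0.46, a difference of 2.66 ± 0.35 (adjusted p = 0.0115). With the replicate number as a block, CDKN1A and SFN had an adjusted p of 0.0947 by edgeR, and no gene was called with a higher effect in HEC-1A (457 at an unadjusted p under 0.05), whereas DESeq2 without the block called 65. Differences also passed for IL21R (5.79 ± 0.65, adjusted p = 0.00546), GAS6-AS1 (7.15 ± 0.79, adjusted p = 0.00546), GAS6 (3.71 ± 0.47, adjusted p = 0.0109), HSPA6 (4.79 ± 0.81, adjusted p = 0.0435) and, named after its values were seen, the lectin LGALS3 (1.58 ± 0.25, adjusted p = 0.0298), which read 11.6, 11.97 and 16.9 CPM with AG-205 and 3.85, 3.82 and 4.02 CPM with DMSO in HEC-1A.

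Leaving out single libraries of either line moved the number with a higher effect in HEC-1A between 4, without HEC-1A DMSO replicate 3, and 44, without T-HESC AG-205 replicate 3; without T-HESC AG-205 replicate 1 it was 43. The differences of CDKN1A, IL21R and GAS6-AS1 passed in all 12 such fits, that of GAS6 in 11, that of SFN in 9 and those of HSPA6 and LGALS3 in 3. HSPA6 was barely expressed in T-HESC, where its mean was 0.401 CPM in controls and 0.676 CPM in treated cultures. SFN was also low there, at 1.27 CPM in controls and 0.617 CPM in treated cultures. Both differences thus rest on few reads in T-HESC. Of the lipid genes, ACSS2, SCD, ACSL1 and INSIG1 did not pass with all 12 libraries. Without T-HESC AG-205 replicate 1 the first 3 passed (adjusted p = 0.00063, 0.011 and 0.0192), as they did with DESeq2 (0.000154, 0.00998 and 0.00521), and ACSS2 also passed without T-HESC AG-205 replicate 3 (0.0497). ACSS2 had log2 fold changes of 3.77 ± 0.13 and 1.30 ± 0.38 (difference 2.45 ± 0.44, adjusted p = 0.0543), SCD 4.57 ± 0.14 and 2.82 ± 0.37 (difference 1.73 ± 0.39, adjusted p = 0.177) and ACSL1 2.27 ± 0.10 and 0.23 ± 0.39 (difference 2.02 ± 0.43, adjusted p = 0.141). INSIG1 had 3.22 ± 0.12 and 3.13 ± 0.30 (difference 0.07 ± 0.29, adjusted p = 1).

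**Figure D5:**
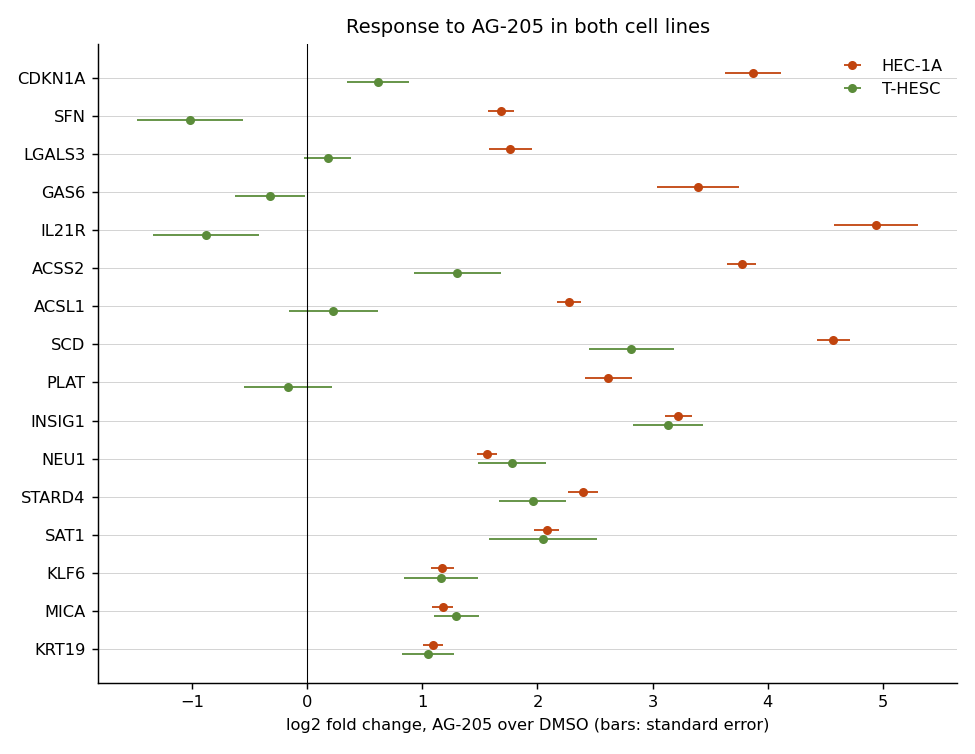
Log2 fold change, AG-205 over DMSO, with its standard error, for 16 genes raised in HEC-1A, in HEC-1A and in T-HESC. The difference passed the interaction test for CDKN1A, SFN, LGALS3, GAS6 and IL21R and not for the other 11, among which INSIG1 and NEU1 had like values in both lines.

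Promoters of the raised genes were searched for short motifs of the factors named above, in the RefSeq sequence (GRCh38) from 250 bases before to 50 bases after each start. The start is that of RefSeq and can differ from the gene positions given above: it lies inside the annotated gene in ACSS2 and CLDN4 and, by a short way, in ALDOC, INSIG1 and MID1IP1. Of the 345 raised genes 210 had a promoter in the table, as did 14 of the 19 cholesterol enzymes, 20 of the 29 lowered genes and 10400 of the 14122 genes tested; FASN had none. The NF-Y box CCAAT, read on both strands, was in 85.7% of the cholesterol enzymes, 38.6% of the other raised genes, 15.0% of the lowered genes and 37.0% of all genes tested (35.7% of all 27305 promoters). The AP-1 site TGANTCA was in 8.57% of the other raised genes, 0% of the cholesterol enzymes, 5.0% of the lowered genes and 4.35% of all tested, but in 7.76% of all promoters. The sterol response element TCACNCCAC was in 4 of 210 (1.90%) of the other raised genes, none of the cholesterol enzymes and 1.11% of all tested.

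The other 3 motifs gave no larger departure. The antioxidant core TGACNNNGC was in 17.1% of the other raised genes and 15.4% of all tested, the ATF4 element TGATGNAA in 2.38 and 1.62%, and the E-box TCACGTGA of lysosomal genes in 0.952 and 1.97%. No test was run on these shares, and a match is a stretch of letters, not a bound site.

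The stretches of 60 bases below hold a motif upstream of the start in genes whose values are given above, printed 5′ to 3′ on the strand of the gene with the motif in capitals. The SRE in ALDOC, MID1IP1 and CCDC28B (log2 fold change 1.06 ± 0.29, a call lost without AG-205 replicate 1 or 2 or DMSO replicate 1 or 3, 0.90 to 1.17) is shown because these are raised genes with that element before the start.
ALDOC (chr17:28576999-28577058, minus strand): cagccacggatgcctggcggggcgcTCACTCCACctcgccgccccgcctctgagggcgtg
MID1IP1 (chrX:38801394-38801453, plus strand): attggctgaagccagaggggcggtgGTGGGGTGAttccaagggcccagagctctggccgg
CCDC28B (chr1:32200532-32200591, plus strand): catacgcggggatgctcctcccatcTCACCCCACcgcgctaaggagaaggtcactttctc
In MID1IP1 the element is read on the reverse strand, and its window opens with a reversed NF-Y box, left in lower case. The NF-Y box of the 3 raised lipid genes with the smallest p follows.
SCD (chr10:100347022-100347081, plus strand): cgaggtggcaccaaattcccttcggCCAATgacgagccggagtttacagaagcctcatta
ACSS2 (chr20:34874841-34874900, plus strand): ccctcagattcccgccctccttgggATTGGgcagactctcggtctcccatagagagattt
INSIG1 (chr7:155297683-155297742, plus strand): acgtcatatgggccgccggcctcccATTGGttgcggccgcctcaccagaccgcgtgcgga
The box is forward in SCD and reversed in ACSS2 and INSIG1, at 186, 123 and 170 bases before the start. Last are AP-1 sites of 3 raised genes that stand outside lipid metabolism.
SFN (chr1:26862954-26863013, plus strand): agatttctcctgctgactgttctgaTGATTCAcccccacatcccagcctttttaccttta
HSPA6 (chr1:161524376-161524435, plus strand): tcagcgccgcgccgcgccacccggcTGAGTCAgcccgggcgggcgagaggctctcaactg
CLDN4 (chr7:73830810-73830869, plus strand): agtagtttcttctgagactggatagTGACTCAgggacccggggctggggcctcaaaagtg
These sites lie 170, 139 and 161 bases before the start of SFN, HSPA6 and CLDN4.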

How the data were processed

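RNA of HEC-1A and T-HESC cultures with AG-205 or DMSO was sequenced in 12 libraries, 3 per group. The authors used Trimmomatic 0.38 for trimming, HISAT2 2.1.0 for alignment to GRCh38 and featureCounts of Subread 2.0.0 with the Ensembl 94 annotation, and deposited raw counts of 58735 genes. Strandedness and the handling of reads that match several genes are not given in the sources used here. The paper reports 3 independent cultures, without saying which libraries share a culture.

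The 6 HEC-1A libraries were fitted with edgeR 4.0.16 in R 4.3.3 (TMM, filterByExpr, quasi-likelihood test, Benjamini-Hochberg adjustment over 14122 genes). The SE was derived from the F value. CPM use the TMM-scaled library size. For 1 gene and 3 libraries a group, exact permutation gives no p below 0.1. The difference between lines was the interaction term of a fit of 12 libraries. Alternatives were DESeq2 1.42.0, RLE and upper-quartile scaling, other filters, thresholds, a replicate block, all 12 libraries and single libraries left out. On simulated counts for this comparison the test recovered 190 of 194 genes changed 4-fold, with 0 false calls, over 13906 genes. The simulated counts followed the fitted spread, without the length shift of AG-205 replicate 3. Most real calls changed less than 4-fold, so the simulation does not tell how calls near the 2-fold limit fare. Any 2 libraries of a group differed by more than sampling noise.

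Symbols were matched by Ensembl ID, and positions and overlaps came from GENCODE 44. The 37 gene lists (833 of 834 genes matched) and the libraries to describe were chosen with earlier results of these data known. Named genes were the 15 raised genes outside the cholesterol enzymes with the smallest p and the 15 with the largest fold (mean of at least 5 CPM), all lowered genes, the 5 near-silent genes with the most counts, up to 6 called and 3 abundant members of each list, 4 MAPR genes, raised genes with a sterol response element, and genes whose response differed between the lines. Genes without a symbol are not named. Some genes that this rule names are not reported here.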

Additional observations from a re-analysis of the deposited data

Results flagged for a closer look

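The response of 7 genes named in the report differed between HEC-1A and T-HESC in the interaction test on all 12 libraries, which is why they are listed here. The difference is the log2 fold change in HEC-1A minus that in T-HESC, and in every case it was positive. CDKN1A differed by 3.23 ± 0.37 (adjusted p = 0.00546, edgeR's quasi-likelihood test) and SFN by 2.66 ± 0.35 (adjusted p = 0.0115). The mean level of CDKN1A with DMSO was 1.40 CPM in HEC-1A and 399 CPM in T-HESC. The weakly expressed immune receptor gene IL21R differed by 5.79 ± 0.65 and the noncoding GAS6-AS1 by 7.15 ± 0.79 (both adjusted p = 0.00546), values that rest on very few counts in the HEC-1A controls. The neighbouring gene GAS6 differed by 3.71 ± 0.47 (adjusted p = 0.0109). HSPA6 differed by 4.79 ± 0.81 (adjusted p = 0.0435) and LGALS3 by 1.58 ± 0.25 (adjusted p = 0.0298). In T-HESC, HSPA6 had a mean of 0.401 CPM in controls and 0.676 CPM in treated cultures, and SFN 1.27 and 0.617 CPM. The differences of these genes thus rest on few reads in that line.

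When each of the 12 libraries was left out in turn, the difference of CDKN1A ranged from 3.00 to 3.43 with a highest adjusted p of 0.0474, and that of SFN from 2.44 to 2.85 with a highest adjusted p of 0.0585. HSPA6 reached an adjusted p of 0.291 and LGALS3 of 0.141 in such fits. DESeq2 called all 7 differences, with adjusted p from 3.29e-10 for CDKN1A to 2.87e-05 for LGALS3. Treating replicate numbers as a block left none of the 7 below the threshold (adjusted p 0.0947 for CDKN1A, SFN, IL21R and GAS6-AS1, 0.158 for GAS6 and HSPA6 and 0.217 for LGALS3), with differences of like size. The cause of these differences was not tested, and cell type, tumour origin and culture of the 2 lines cannot be told apart.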

How the results depend on the processing

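Of the 345 raised genes 107 were called in all 13 alternatives, and of the 29 lowered genes 5. For the 138 genes named with a result, many of them chosen for a small p or a large fold, 1613 of 1780 comparisons between an alternative and the main setting gave the same call in the same direction, 159 lost the call, 4 gained it and 4 changed sign, all of the last for SREBF1, whose log2 fold change near 0 was 0.014 with upper-quartile scaling and lay between -0.139 and 0.084 when single libraries were left out. Of 420 comparisons of list counts, 332 stayed within 1.5 times. A fit of all 12 libraries, in which T-HESC raises the shared estimate of spread, called 135 genes higher (117 outside the cholesterol enzymes) and 6 lower in HEC-1A. Dropping the fold limit gave 1038 higher (1019 outside the cholesterol enzymes) and 605 lower. Leaving out single libraries gave 266 to 524 genes higher outside the cholesterol enzymes and 23 to 46 lower, the largest without AG-205 replicate 3. DESeq2 called 274 higher and 28 lower, within 1.5 times of the main counts, and the other scalings and filters and a stricter adjusted p of 0.01 stayed within that range too.

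The replicate numbers gave no clear sign of pairing. The correlation of deviations between same-numbered AG-205 and DMSO libraries was -0.08, 0.23 and 0.00, and 1 of the 3 AG-205 libraries (replicate 2) correlated best with its own number. With 3 libraries a group, and AG-205 replicate 3 set apart by gene length, these correlations cannot settle whether same-numbered libraries share a culture. With the replicate block 335 genes were higher (316 outside the cholesterol enzymes) and 28 lower. For the difference between the lines, the block left 0 genes with a higher effect in HEC-1A by edgeR's adjusted p (457 at an unadjusted p under 0.05), DESeq2 called 65, and leaving out single libraries gave 4 to 44. The cause was not tested. Depth limits what can be said of genes below about 1 CPM, where a few reads make the fold.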
